A study of Mus musculus with 6 samples.

Results

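The genes of respiratory complex II, complex III, cytochrome c and the ATP synthase were examined in retinal mRNA of mice with a conditional knockout of Cyfip2. The genes were taken by name: symbols that begin with Atp5 or Uqcr, together with Sdha, Sdhb, Sdhc, Sdhd, Cyc1 and Cycs, with a mean level of 1 FPKM or more across the 6 libraries. Of 24346 symbols deposited, 31 matched, and all 31 reached that level. The lowest, Atp5s, averaged 6.32 FPKM, so no gene lay just outside the limit. FPKM is a count of sequenced fragments divided by transcript length and by the size of the library. The 31 comprised 4 genes of complex II, 9 of complex III, the cytochrome c gene Cycs, 15 of the ATP synthase, and 2 (Atp5s and Atp5sl) that carry the name but are not core subunits.

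The Cyfip2 CKO group had 3 libraries and the Cyfip2 WT group 3, all from retina. The labels give neither the age of the mice nor the Cre driver that removes Cyfip2, and nothing in them tells whether each sample is a separate animal, so the p-values reflect the spread among these samples alone, and that spread may be technical. Cyfip2, which encodes a subunit of the actin-regulating WAVE complex, was at 8.33, 10.2 and 11.2 FPKM in CKO and at 35.5, 63.1 and 62.3 FPKM in WT. No CKO library reached the lowest WT library. Gnat1, which encodes the rod transducin alpha subunit and marks photoreceptors of the labelled tissue, was at 2681, 2620 and 2674 FPKM in CKO, against 2544, 2861 and 2615 FPKM in WT, and was thus abundant in every library. WT 3 stood apart in single features: the microRNA gene Mir8104 was listed there at 19268.5 FPKM, against 2059.1 FPKM in CKO 1 and 0 in the others, and the complex I gene Ndufs5 at 0.0177 FPKM.

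Photoreceptors and their synapses consume large amounts of ATP, which they draw from glycolysis and from oxidative phosphorylation in the inner mitochondrial membrane. Complex II oxidizes succinate and passes electrons to ubiquinone; complex III takes them from ubiquinol to cytochrome c while pumping protons; the ATP synthase lets protons flow back and makes ATP. All subunits of complex II are encoded in the nucleus, whereas complex III and the ATP synthase also hold subunits encoded in mitochondrial DNA, which were not analysed here.

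No gene of the 31 passed the test between CKO and WT retina. None was called higher and none lower at a limma adjusted p under 0.05 over 13215 genes, against 0.0151% of all tested genes called higher and 0.00757% called lower, and the smallest adjusted p among the members was 0.5915. At an unadjusted p under 0.05, 1 member was higher (Sdhc, 3.23% of the members, against 3.52% of all tested genes) and 1 was lower (Uqcrfs1, 3.23% of the members, against 4.36%). These shares lay near the background. The fitted fold changes were small: they ran from -0.13 (Atp5j) to 0.16 (Sdhc) on the log2(FPKM + 1) scale, with 8 above 0 and 23 below 0 and a median of -0.049. Over all tested genes the median was -0.0016 and 50.5% lay below 0. For 29 of the 31 genes the 95% confidence interval excluded a change of 1.25-fold in either direction; the exceptions were Atp5j and Atp5s. Over all tested genes, 62.6% of intervals were that narrow. In bulk samples, fewer cells of a type and less RNA per cell cannot be told apart.

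**Figure D1:**
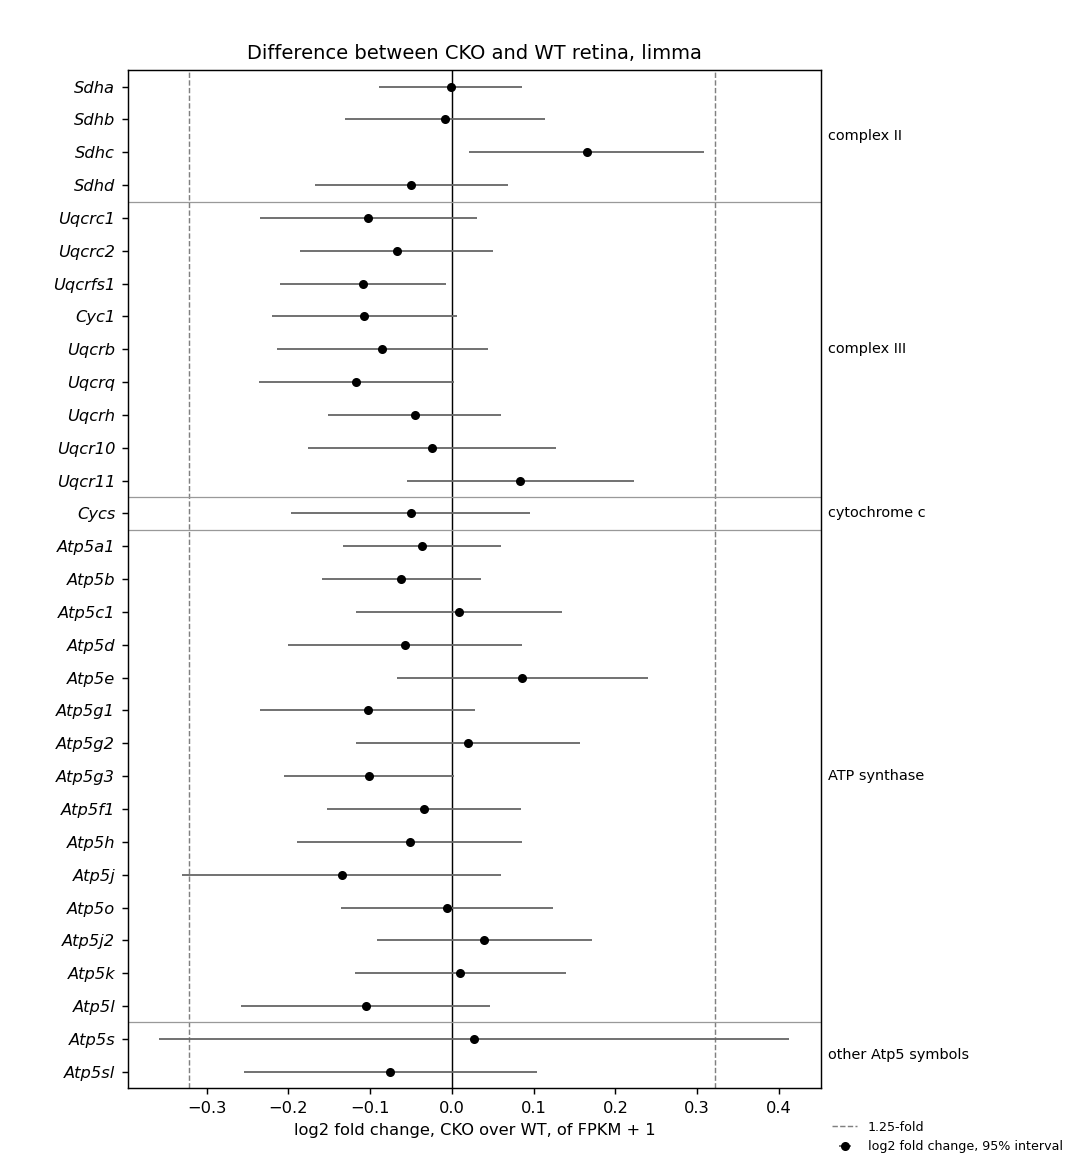
Fold change of each gene, CKO over WT, with its 95% confidence interval from limma (horizontal axis, log2 of FPKM + 1; 3 libraries per group), genes grouped by complex from top to bottom. The intervals of Sdhc and Uqcrfs1 do not cross 0, and those of Atp5j and Atp5s reach past the dashed lines at 1.25-fold.

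These are abundant transcripts with little spread. The median level of the 31 genes was 200.8 FPKM, against 12.6 FPKM for all tested genes. In level, 23 members stood above the 95th percentile of tested genes and 4 at or above the 99th. The median coefficient of variation among CKO libraries was 4.42% for the members and 6.88% for all tested genes, and among WT libraries it was 3.35% and 7.30%. The median standard error of the fold change was 0.056 (log2), against 0.084 over all tested genes. Members took 1.48% to 1.52% of the summed FPKM in CKO and 1.47% to 1.55% in WT. Once Mir8104 was left out of the sum, the value was 1.54% for WT 3 and 1.53% for CKO 1. The shares overlapped between the groups with and without Mir8104.

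**Figure D2:**
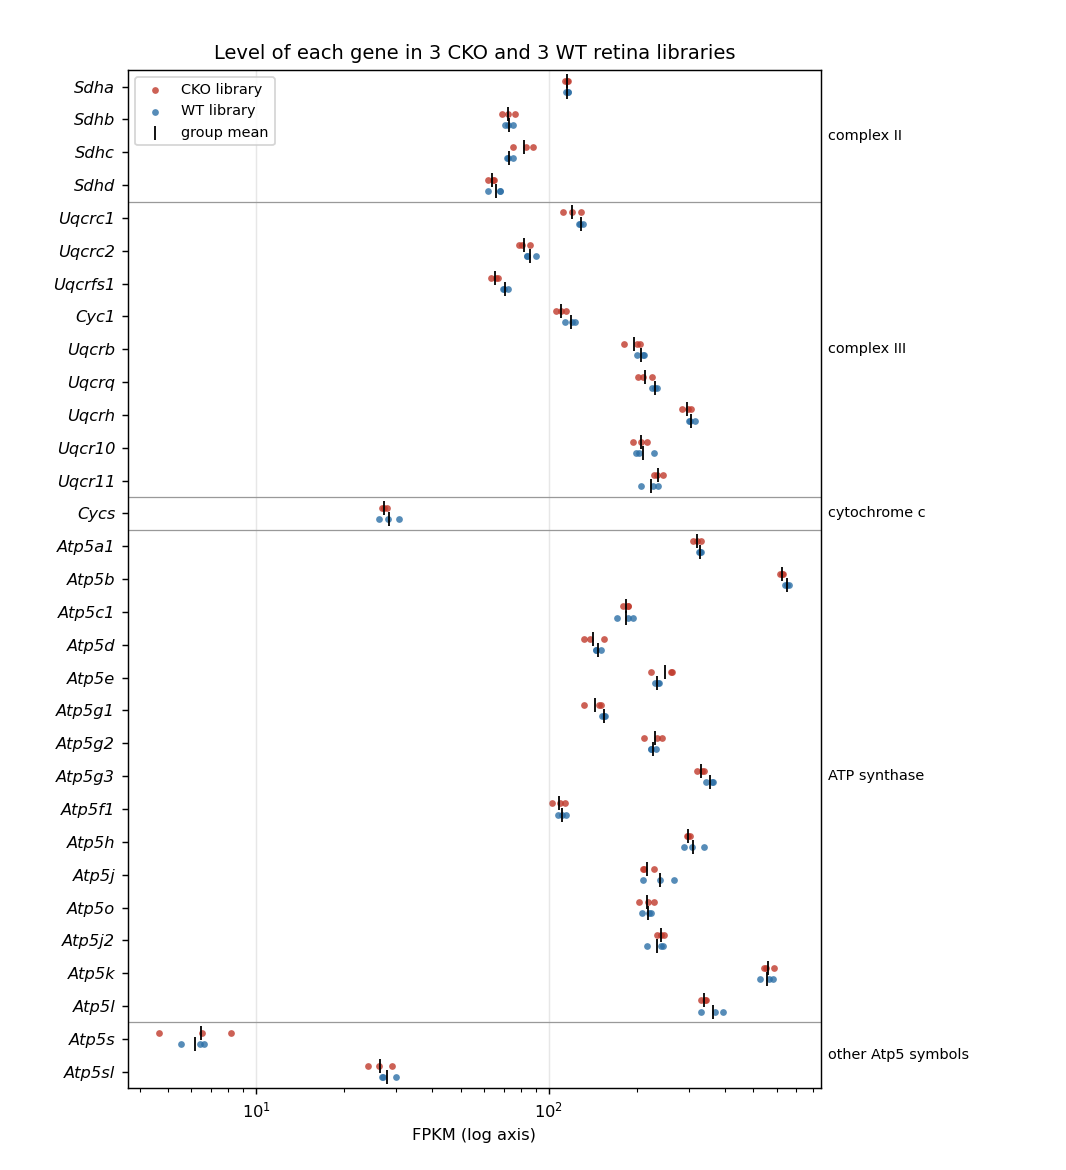
FPKM of each gene in every library (horizontal log axis), CKO above WT in each row, with group means as vertical ticks. Levels span 101.1-fold from Atp5s to Atp5b, while CKO and WT points of a gene lie close together.

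Complex II had 1 gene above 0 and 3 below 0 in fold change, with a median of -0.0047, and none was called. Sdha encodes the flavoprotein that binds and oxidizes succinate. Its level was 115.6, 113.8 and 116.4 FPKM in CKO, against 116.3, 116.0 and 114.0 FPKM in WT. The groups overlapped, and the log2 fold change was -0.0016 (SE 0.038, 95% interval -0.089 to 0.086, limma adjusted p = 0.9934). Its standard error was the smallest of the 31, and the interval covers ratios of CKO to WT from 0.940 to 1.06. Sdhb, the iron-sulfur subunit that carries electrons onward, was at 72.4, 68.9 and 76.7 FPKM in CKO, against 72.5, 70.8 and 75.7 FPKM in WT. Here too the groups overlapped, with a log2 fold change of -0.0078 (95% interval -0.13 to 0.11).

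The membrane anchors Sdhc and Sdhd hold the ubiquinone site together with Sdhb. Sdhc was at 75.3, 83.5 and 88.2 FPKM in CKO, against 72.4, 75.4 and 71.8 FPKM in WT. CKO 2 and CKO 3 were above every WT library, while CKO 1 lay within the WT range. The log2 fold change of 0.16 (SE 0.062, 95% interval 0.022 to 0.31) had an unadjusted limma p of 0.0292 and an adjusted p of 0.5915. Its unadjusted p was 0.003 without CKO 1 and 0.0369 without WT 2, and 0.071 to 0.103 without any one of the other 4 libraries. Sdhd was at 62.1, 64.8 and 64.2 FPKM in CKO, against 68.2, 62.0 and 67.9 FPKM in WT, with WT 2 below every CKO library (log2 fold change -0.049, 95% interval -0.17 to 0.069). The ratio of Sdhc to Sdhd was 1.21, 1.29 and 1.37 in CKO and 1.06, 1.22 and 1.06 in WT, so the CKO library with the lowest ratio lay within the WT range. Sdhc lies on chromosome 1 from 171127165 to 171150603 and Sdha on chromosome 13 from 74322254 to 74350280, both on the minus strand (GENCODE M21, GRCm38).

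In complex III, 8 of 9 genes had fold changes below 0 and 1 above 0, with a median of -0.085; none was called. Uqcrfs1 encodes the Rieske iron-sulfur protein, which takes the first electron from ubiquinol. It was at 65.9, 63.3 and 67.2 FPKM in CKO, against 72.5, 70.0 and 69.5 FPKM in WT. Every CKO library was below every WT library. The log2 fold change was -0.11 (SE 0.044, 95% interval -0.21 to -0.0077), with an unadjusted limma p of 0.03811 and an adjusted p of 0.6024. Its unadjusted p was 0.0391 without CKO 3 and 0.0478 without WT 3, and 0.0588 to 0.136 without any one of the other 4 libraries. Cyc1, the cytochrome c1 that hands electrons to cytochrome c, was at 106.1, 109.9 and 114.4 FPKM in CKO, against 119.9, 113.5 and 122.7 FPKM in WT. CKO 3 lay just above WT 2, and the other CKO libraries were lower than all WT libraries (log2 fold change -0.11, 95% interval -0.22 to 0.0059).

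The core proteins Uqcrc1 and Uqcrc2 form the large matrix domain of complex III. Uqcrc1 was at 111.4, 129.1 and 119.7 FPKM in CKO, against 128.2, 131.0 and 127.0 FPKM in WT. CKO 2 lay within the WT range, and the spread within CKO was wider than within WT (log2 fold change -0.10, 95% interval -0.24 to 0.031). Uqcrc2 was at 81.1, 86.1 and 79.0 FPKM in CKO, against 83.8, 84.2 and 90.0 FPKM in WT, again with CKO 2 within the WT range (log2 fold change -0.068, 95% interval -0.19 to 0.050). Of the 50-base windows of its transcript, 24.8% also occurred in a transcript of the gene Pdzd9, on either strand, and without the use of strand being known their reads cannot be told apart.

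The small accessory subunits of complex III averaged more FPKM than its redox and core subunits. Over the 31 members, level and transcript length had a Spearman correlation of -0.541, and the part of length in these levels was not tested. Uqcrh, the acidic hinge protein, averaged 296.7 ± 10.9 FPKM in CKO, against 306.2 ± 8.18 FPKM in WT (SD over n = 3 libraries each). Uqcrq averaged 212.2 ± 12.3 FPKM in CKO, against 230.0 ± 4.78 FPKM in WT, a log2 fold change of -0.12 (95% interval -0.24 to 0.0021). Uqcrb, at 195.0 ± 12.5 FPKM in CKO, against 206.7 ± 6.23 FPKM in WT, and Uqcr10, at 206.0 ± 11.3 FPKM in CKO, against 209.8 ± 15.9 FPKM in WT, also had overlapping groups. Of the Uqcrb windows of 50 bases, 43.4% occurred in transcripts of other genes, as did 10.9% for Uqcr11 and 7.83% for Uqcrh. Uqcr11 was the gene of the complex above 0, with 236.5 ± 8.86 FPKM in CKO, against 223.4 ± 15.7 FPKM in WT (log2 fold change 0.084, 95% interval -0.055 to 0.22). The ratio of Uqcrh to Uqcrfs1 was 4.55, 4.50 and 4.56 in CKO and 4.36, 4.32 and 4.32 in WT; this pair was chosen after the values were seen, as the most and the least abundant of the complex, and the ratio was not tested.

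Cycs encodes the mobile carrier cytochrome c, which shuttles electrons between complex III and cytochrome c oxidase. It was at 27.9, 27.3 and 26.8 FPKM in CKO, against 28.3, 26.3 and 30.6 FPKM in WT. All CKO libraries lay within the WT range (log2 fold change -0.050, 95% interval -0.20 to 0.095, limma adjusted p = 0.8935). Per length, Cyc1 was 3.80-fold to 4.32-fold more abundant than Cycs across the 6 libraries. The principal Cycs transcript is long, at 3123 bases for 105 codons, and 28.5% of its 50-base windows also occurred in transcripts of other genes.

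In the catalytic head of the ATP synthase, F1, 2 of 5 genes had fold changes above 0 and 3 below 0, and none was called. Atp5b, the beta subunit that carries the catalytic sites, was the most abundant of the 31 genes. It was at 626.5, 632.4 and 615.2 FPKM in CKO, against 663.2, 650.0 and 643.2 FPKM in WT. Every CKO library was below every WT library, by little: the log2 fold change was -0.062 (SE 0.042, 95% interval -0.16 to 0.035, limma adjusted p = 0.7737). Atp5a1, the alpha subunit that alternates with beta in the head, was at 310.4, 320.7 and 330.1 FPKM in CKO, against 326.3, 329.3 and 330.1 FPKM in WT. CKO 3 reached the top of the WT range (log2 fold change -0.037, 95% interval -0.13 to 0.060). Alpha and beta occur in equal numbers in the enzyme, and the ratio of Atp5b to Atp5a1 mRNA was 2.02, 1.97 and 1.86 in CKO and 2.03, 1.97 and 1.95 in WT.

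The central stalk genes overlapped between the groups as well. Atp5c1, the gamma subunit that turns inside the head, was at 186.5, 186.6 and 179.0 FPKM in CKO, against 186.0, 170.3 and 193.0 FPKM in WT, with all CKO libraries inside the WT range (log2 fold change 0.0088, 95% interval -0.12 to 0.13). Atp5d, the delta subunit, averaged 141.5 ± 11.9 FPKM in CKO, against 147.0 ± 3.03 FPKM in WT. Atp5e, the epsilon subunit, averaged 249.6 ± 22.3 FPKM in CKO, against 234.5 ± 4.25 FPKM in WT (SD over n = 3 libraries each). CKO 2 had the lowest value of both genes among all 6 libraries, and the groups overlapped. Without CKO 2 the log2 fold change of Atp5e was 0.16, against 0.09 with all libraries, and its unadjusted limma p was then under 0.05. Without CKO 1 that of Atp5d was -0.12, against -0.057 with all libraries, with an unadjusted limma p of 0.0348.

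The c-ring is the rotor in the membrane, and Atp5g1, Atp5g2 and Atp5g3 encode precursors of the same mature subunit c. Atp5g1 was at 150.7, 131.8 and 147.8 FPKM in CKO, against 155.8, 151.3 and 154.7 FPKM in WT. Every CKO library was below every WT library, with CKO 2 the lowest and CKO 1 just short of WT 2 (log2 fold change -0.10, SE 0.057, 95% interval -0.23 to 0.028, limma adjusted p = 0.7235). Atp5g3 was at 321.0, 339.0 and 334.7 FPKM in CKO, against 360.9, 343.3 and 363.0 FPKM in WT. Its groups did not overlap either, although WT 2 was close to CKO 2 (log2 fold change -0.10, SE 0.045, 95% interval -0.21 to 0.0029, limma adjusted p = 0.6427). Atp5g2 was at 211.1, 233.6 and 244.2 FPKM in CKO, against 222.8, 222.8 and 232.8 FPKM in WT, with CKO libraries on both sides of the WT range (log2 fold change 0.020, 95% interval -0.12 to 0.16).

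The order Atp5g3, Atp5g2, Atp5g1 from high to low held in each of the 6 libraries. Atp5g3 supplied 47.0%, 48.1% and 46.1% of the summed c-ring FPKM in CKO and 48.8%, 47.9% and 48.4% in WT. The share of Atp5g2 was 30.9%, 33.2% and 33.6% in CKO and 30.1%, 31.1% and 31.0% in WT. Both shares overlapped between the groups. Of the 50-base windows of the Atp5g2 transcript, 87.4% also occurred in transcripts of Gm10175 and Gm10231, against 11.6% for Atp5g1, spread over 366 genes, and 0% for Atp5g3. The sources used here do not give how reads of several possible origins were assigned, so the Atp5g2 level is uncertain. Atp5g1 lies on chromosome 11 from 96068852 to 96075670, Atp5g2 on chromosome 15 from 102662864 to 102672352 and Atp5g3 on chromosome 2 from 73908447 to 73911326, all on the minus strand.

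The promoter windows of the c-ring genes, Cycs and Sdha are shown because these genes code for a shared product at unequal levels, for the carrier, and for the steadiest subunit. The windows run from 250 bases before to 50 after a start site and come from RefSeq (GRCm38.p6), each on the strand of its gene, here minus for all. Capitals mark matches, on either strand, to motifs linked to respiratory genes: GCGCANGCG for nuclear respiratory factor NRF1, CCGGAAGT for the ETS factor GABP, AAGATGGCG for YY1 and TCAAGGTCA for the receptor ERR alpha. Atp5g2 and Cycs each show a stretch that matches NRF1, Sdha shows several, Atp5g3 has an ERR alpha match and then an NRF1 match just after the start, and Atp5g1 has none of the motifs.
Atp5g1, chr11:96075582-96075881: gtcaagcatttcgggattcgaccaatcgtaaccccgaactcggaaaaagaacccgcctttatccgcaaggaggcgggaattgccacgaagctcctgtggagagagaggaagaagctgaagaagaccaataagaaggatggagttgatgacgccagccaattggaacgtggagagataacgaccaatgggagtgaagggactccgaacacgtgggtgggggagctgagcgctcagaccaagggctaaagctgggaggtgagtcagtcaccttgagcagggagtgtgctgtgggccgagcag
Atp5g2, chr15:102670998-102671297: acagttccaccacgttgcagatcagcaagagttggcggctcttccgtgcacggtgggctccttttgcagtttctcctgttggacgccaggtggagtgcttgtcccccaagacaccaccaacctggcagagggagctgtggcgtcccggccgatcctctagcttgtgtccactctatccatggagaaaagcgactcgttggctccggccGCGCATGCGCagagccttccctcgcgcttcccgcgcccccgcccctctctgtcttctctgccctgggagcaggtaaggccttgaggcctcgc
Atp5g3, chr2:73911277-73911576: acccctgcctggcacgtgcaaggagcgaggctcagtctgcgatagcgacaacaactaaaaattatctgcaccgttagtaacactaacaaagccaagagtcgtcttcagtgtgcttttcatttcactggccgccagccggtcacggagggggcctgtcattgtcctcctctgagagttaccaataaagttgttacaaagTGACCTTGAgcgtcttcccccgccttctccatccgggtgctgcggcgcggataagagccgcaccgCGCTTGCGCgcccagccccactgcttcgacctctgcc
Cycs, chr6:50566520-50566819: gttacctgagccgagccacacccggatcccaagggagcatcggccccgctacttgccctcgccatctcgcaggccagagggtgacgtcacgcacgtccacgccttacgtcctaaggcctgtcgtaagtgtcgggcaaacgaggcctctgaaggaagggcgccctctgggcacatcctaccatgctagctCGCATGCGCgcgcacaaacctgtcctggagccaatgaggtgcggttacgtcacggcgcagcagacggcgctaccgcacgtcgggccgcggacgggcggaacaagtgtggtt
Sdha, chr13:74350191-74350490: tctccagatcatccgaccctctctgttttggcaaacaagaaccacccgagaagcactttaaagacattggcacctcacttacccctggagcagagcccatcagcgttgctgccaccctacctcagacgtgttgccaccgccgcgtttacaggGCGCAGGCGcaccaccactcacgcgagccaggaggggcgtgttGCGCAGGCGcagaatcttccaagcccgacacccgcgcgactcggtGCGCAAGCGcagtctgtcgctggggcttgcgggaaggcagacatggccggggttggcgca

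Windows were found for 25 of the 31 genes, 29 windows in all. The NRF1 letters occurred in 12 of them (41.4%), from 12 genes, against 6.25% of 32851 windows of all genes. The genes were Sdha and Sdhd of complex II, Uqcrc1 and Uqcr11 of complex III, Cycs, and Atp5c1, Atp5g2, Atp5g3, Atp5h, Atp5k, Atp5l and Atp5o of the ATP synthase. In Sdha the matches began 98, 55 and 10 bases before the start site, in Cycs 61 bases before it and in Atp5g3 at base 14 after it. The GABP letters were found in 3 member windows (10.3%), against 3.89% of all windows. Those of YY1 were in 4 member windows (13.8%), against 1.40%, and those of ERR alpha in 2 (6.90%), against 0.423%. The 4 YY1 windows came from 3 genes, because overlapping windows of Atp5sl hold the same match. Where NRF1 letters overlap their own reverse complement, as in Atp5g2, Atp5k and Uqcrc1, the window was counted once. Member windows were richer in G and C, with a median of 58.7% against 52.7% for all windows, and the part of base composition in these shares was not tested. A match of letters does not show that a factor binds.

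The peripheral stalk holds the head still against the turning rotor. All 4 of its genes had fold changes below 0, with a median of -0.043, and none was called. Atp5o, the OSCP subunit that ties the stalk to the top of the head, was at 203.1, 218.0 and 229.4 FPKM in CKO, against 223.9, 208.5 and 220.3 FPKM in WT, with CKO libraries on both sides of the WT range (log2 fold change -0.0058, 95% interval -0.14 to 0.12). Atp5j, the coupling factor 6 subunit, had the lowest fold change of the 31 in the fit of all libraries. It was at 209.9, 211.3 and 229.0 FPKM in CKO, against 239.2, 210.5 and 267.3 FPKM in WT. WT 2 lay among the CKO libraries and WT 3 was the highest of all (log2 fold change -0.13, SE 0.085, 95% interval -0.33 to 0.061, limma adjusted p = 0.7588). The fold change was -0.05 without WT 3 and -0.22 without WT 2, and other genes were lowest without WT 3 (Uqcrfs1, -0.12), CKO 1 (Uqcrq, -0.16) or CKO 2 (Uqcrc1, -0.16). Atp5h, subunit d, averaged 299.9 ± 3.37 FPKM in CKO, against 311.5 ± 24.4 FPKM in WT, and Atp5f1, subunit b, 108.2 ± 5.61 FPKM in CKO, against 110.8 ± 3.50 FPKM in WT (SD over n = 3 libraries each). Of their 50-base windows, 47.9% for Atp5h, 38.7% for Atp5f1 and 34.0% for Atp5o occurred in transcripts of other genes, as did 16.3% for Atp5j, where Gabpa is among them.

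The small membrane subunits e, f and g bring ATP synthase dimers together at the crests of the cristae. Atp5k, subunit e, was the next most abundant gene after Atp5b, at 561.9 ± 23.3 FPKM in CKO, against 558.0 ± 29.4 FPKM in WT (SD over n = 3 libraries each; log2 fold change 0.010, 95% interval -0.12 to 0.14). Atp5l, subunit g, averaged 338.0 ± 6.99 FPKM in CKO, against 364.6 ± 32.1 FPKM in WT, with 330.5 FPKM in WT 2 and 394.0 FPKM in WT 3. Its groups overlapped, and 84.8% of its 50-base windows occurred in other transcripts, among them Atp5l-ps1 and Atp5l-ps2. Atp5j2, subunit f, averaged 241.2 ± 6.60 FPKM in CKO, against 234.8 ± 15.8 FPKM in WT. Usmg5, a further membrane subunit under another symbol that was added after its values were seen, was at 374.6, 374.2 and 391.3 FPKM in CKO, against 411.4, 403.6 and 469.3 FPKM in WT. Its groups did not overlap (log2 fold change -0.17, 95% interval -0.32 to -0.021, limma adjusted p = 0.5915). Another such symbol, 2010107E04Rik, was at 361.1, 417.0 and 410.9 FPKM in CKO, against 432.6, 406.2 and 456.0 FPKM in WT, and its groups overlapped (log2 fold change -0.12, 95% interval -0.28 to 0.04).

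The remaining symbols encode assembly or accessory proteins. Atp5s, coupling factor B and now named Dmac2l, was at 8.17, 6.52 and 4.66 FPKM in CKO, against 6.60, 5.54 and 6.42 FPKM in WT. CKO libraries held both the highest and the lowest value, and the 95% interval of the log2 fold change was the widest of the 31, from -0.36 to 0.41. Atp5sl, now named Dmac2 and known in human cells for assembly of complex I, averaged 26.5 ± 2.48 FPKM in CKO, against 27.9 ± 1.72 FPKM in WT (SD over n = 3 libraries each).

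Across the complexes, every CKO library lay below every WT library for 4 of the 31 genes (12.9%), against 6.95% of all tested genes. They were Uqcrfs1, Atp5b, Atp5g1 and Atp5g3. No member had every CKO library above every WT library, against 6.96% of all tested genes. With a library left out, the share rose over all tested genes as well, and each count stands beside that share. It was 12 members (38.7%, against 12.1% of all tested genes) without WT 2, 7 (22.6%, against 11.7%) without CKO 1, 7 (22.6%, against 12.4%) without CKO 3 and 6 (19.4%, against 11.0%) without CKO 2. It was 4 members (12.9%) without WT 1, against 13.1% of all tested genes, and 4 without WT 3, against 11.4%.

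**Figure D3:**
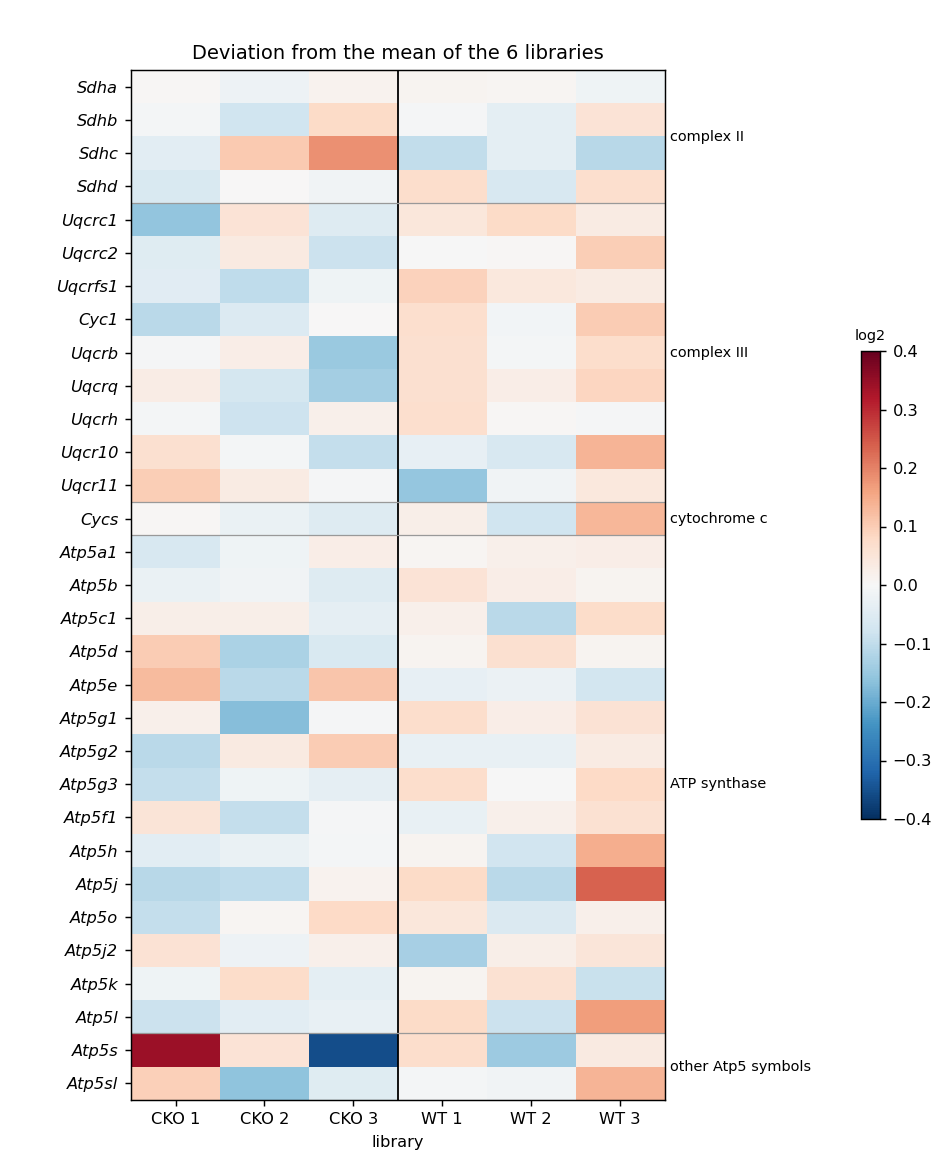
Deviation of each gene (rows) in each library (columns, CKO left of the line and WT right of it) from its mean over the 6 libraries, on the log2(FPKM + 1) scale. WT 3 is above the mean for 26 of 31 genes, while WT 2 is above it for 13.

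The WT libraries differed among themselves in these genes. The members lay above their mean over all libraries in 13 cases in CKO 1, 11 in CKO 2, 11 in CKO 3, 21 in WT 1, 13 in WT 2 and 26 in WT 3. WT 3 held the highest value of the 6 libraries for 13 genes, among them Atp5j, Atp5h, Atp5l, Cycs, Cyc1 and Uqcrc2. The median deviation was -0.0083, -0.019 and -0.013 (log2) in CKO 1 to 3 and 0.020, -0.0095 and 0.055 in WT 1 to 3. By this median WT 2 lay within the range of the CKO libraries.

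Summed over each complex, the group means lay within a few percent of each other. The 4 genes of complex II summed to 334.0 ± 10.4 FPKM in CKO, against 327.7 ± 2.98 FPKM in WT (SD over n = 3 libraries each), a ratio of 1.02. Complex III summed to 1552, 1529 and 1491 FPKM in CKO, against 1569, 1552 and 1619 FPKM in WT, a ratio of 0.965, and CKO 1 lay just above WT 2. The 15 ATP synthase genes summed to 4179, 4195 and 4249 FPKM in CKO, against 4325, 4230 and 4397 FPKM in WT, a ratio of 0.975. In both cases WT 2 lay at or below the highest CKO library. The ATP synthase sum leaves out Usmg5 and 2010107E04Rik, which are not among the 31 genes. All 31 genes together summed to 6122, 6113 and 6143 FPKM in CKO, against 6285, 6165 and 6413 FPKM in WT, where the groups did not overlap and the ratio was 0.974. As a percent of all summed FPKM, the groups overlapped.

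**Figure D4:**
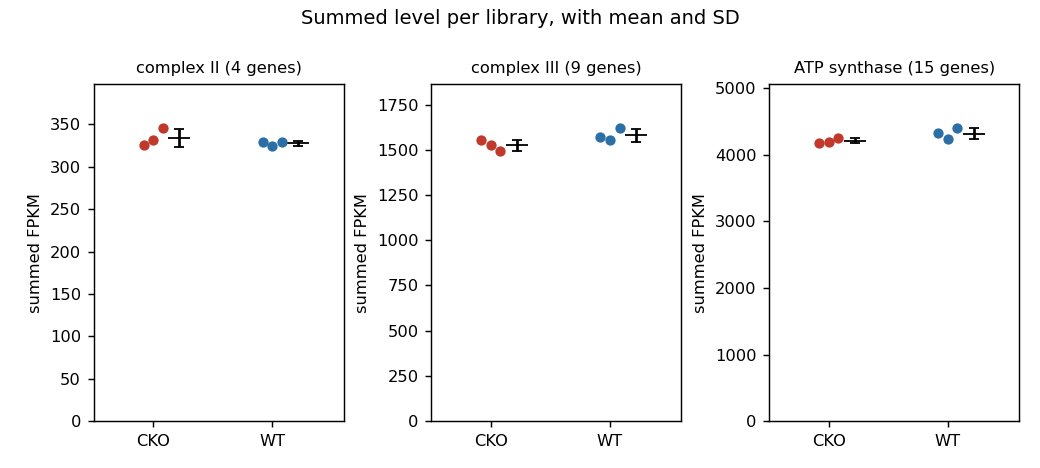
Summed FPKM of the genes of complex II, complex III and the ATP synthase (vertical axes, from 0) in each CKO and WT library, with mean and SD beside the points. CKO and WT points overlap in each panel, and the ratios of the means are 1.02, 0.965 and 0.975. The ATP synthase panel leaves out Usmg5 and 2010107E04Rik.

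Genes around these complexes showed no call either. Of 4 assembly factors of complex II, 1 had a fold change above 0 and 3 below 0, and none had an unadjusted p under 0.05; those of smallest p were Sdhaf1 (-0.064), Sdhaf4 (-0.13) and Sdhaf2 (0.015). Among 7 genes for assembly of complex III and cytochrome c, 4 were above 0 and 3 below 0. Bcs1l, the chaperone that inserts the Rieske protein, was at 5.74, 5.86 and 7.58 FPKM in CKO, against 5.70, 3.39 and 4.41 FPKM in WT. Every CKO library was above every WT library, if barely for WT 1 (log2 fold change 0.44, 95% interval 0.056 to 0.82, limma adjusted p = 0.5915). Uqcc2 (0.078) and Hccs (-0.091), which attaches haem to cytochrome c, had intervals across 0.

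For the ATP synthase, 4 of 5 genes of assembly and regulation were tested, 1 above 0 and 3 below 0. Those of smallest p were Atpaf2 (-0.11), which helps build F1, the inhibitor Atpif1 (0.068) and Tmem70 (-0.084). For Atpaf2 every CKO library was below every WT library (limma adjusted p = 0.7642), whereas the groups of Atpif1 and Tmem70 overlapped. The carriers that feed the enzyme with phosphate and exchange ATP for ADP were below 0 in 3 of 3 cases. Slc25a3, the phosphate carrier, was at 197.5, 204.9 and 206.9 FPKM in CKO, against 218.7, 213.0 and 223.7 FPKM in WT. Its groups did not overlap (log2 fold change -0.10, 95% interval -0.20 to -0.0079, limma adjusted p = 0.6007), whereas those of the ADP/ATP carriers Slc25a5 (-0.075) and Slc25a4 (-0.018) did. Of 6 tested enzymes that pass electrons to ubiquinone by other routes, 3 were above 0 and 3 below 0, and those of smallest p were Prodh (0.15), Dhodh (0.096) and Etfb (-0.048).

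Of 12 regulators of respiratory genes, 7 were above 0 and 5 below 0, with a median of 0.020. Pprc1, a coactivator related to PGC-1 alpha, was at 3.97, 3.74 and 3.81 FPKM in CKO, against 2.71, 3.40 and 2.96 FPKM in WT. All CKO libraries were above all WT libraries (log2 fold change 0.27, 95% interval 0.039 to 0.50, limma adjusted p = 0.5913). Tfb2m (0.12), which starts mitochondrial transcription, and Ppargc1a (0.097), which encodes PGC-1 alpha, had intervals across 0, although the groups of Tfb2m did not overlap. Among 15 genes of mitochondrial membranes, import and fusion, 3 were above 0 and 12 below 0, with a median of -0.063. The smallest p values there belonged to the prohibitin Phb2 (-0.13), the outer membrane channel Vdac3 (-0.092) and the import receptor Tomm70a (-0.11). For Vdac3 every CKO library was below every WT library, whereas the groups of Phb2 and Tomm70a overlapped. No gene of these lists passed the adjusted threshold.

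The median log2 fold change was -0.049 over the 31 members, -0.043 over 37 complex I genes and -0.075 over 13 complex IV genes. The complex I list holds Nduf symbols and includes Ndufa4 (-0.084), whose protein has also been assigned to complex IV. The lowest single values were -0.13 for the members, -0.42 for Ndufb2 of complex I and -0.55 for Cox7a1 of complex IV, the last of these named after its values were seen. Without Ndufs5, whose fold change of 2.04 rests on WT 3, the complex I median over 36 genes was -0.054. The complex I genes of smallest p were Ndufb2, Ndufab1 (-0.41) and Ndufa12 (-0.27), and those of complex IV were Cox5b, Cox6a1 (-0.28) and Cox5a (-0.20). Ndufb2 was at 73.7, 70.2 and 75.4 FPKM in CKO, against 93.2, 89.9 and 111.9 FPKM in WT (limma adjusted p = 0.2686). Cox5b of cytochrome c oxidase was at 238.3, 231.1 and 226.1 FPKM in CKO, against 287.0, 281.1 and 276.3 FPKM in WT. The groups did not overlap for either gene, and neither passed the adjusted threshold (Cox5b log2 fold change -0.28, 95% interval -0.37 to -0.18, limma adjusted p = 0.1585). Every CKO library lay below every WT library for 4 of 31 members (12.9%), 9 of 37 complex I genes (24.3%) and 4 of 13 complex IV genes (30.8%). Over all tested genes this share was 6.95%. The difference between the complexes was not tested.

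**Figure D5:**
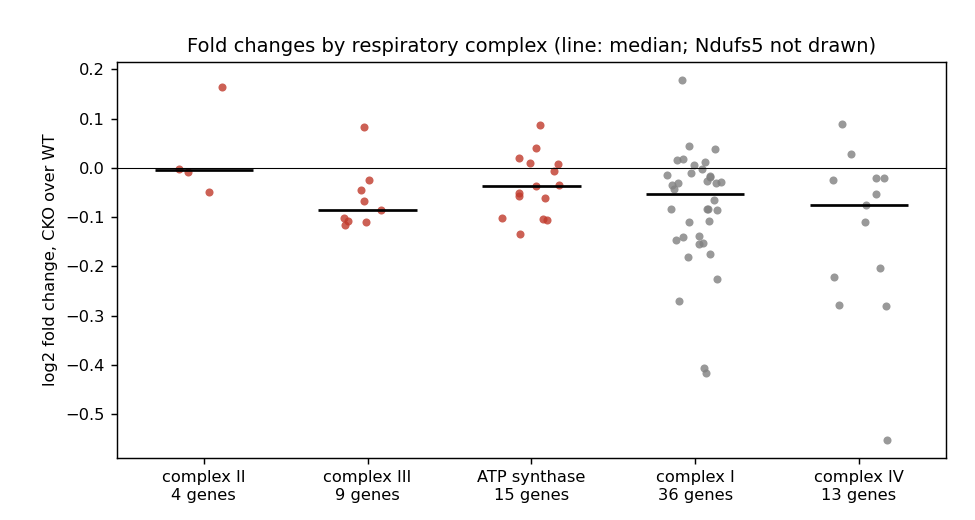
Log2 fold change of each gene, CKO over WT (vertical axis), by complex, with medians as lines; complex II, III and the ATP synthase in red and complexes I and IV in grey. Ndufs5 is not drawn. Points of the red groups lie between -0.13 and 0.16, and those of complexes I and IV reach -0.42 and -0.55.

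Summed marker levels of several retinal cell types stood apart between the groups in these libraries. The sum of 8 cone markers was 635.2 to 698.8 FPKM in CKO, against 701.7 to 786.4 FPKM in WT, and for 8 ganglion cell markers 663.2 to 686.9 FPKM in CKO, against 725.5 to 785.9 FPKM in WT. For 8 bipolar cell markers it was 869.4 to 924.8 FPKM in CKO, against 948.6 to 988.0 FPKM in WT. Cone, ganglion and bipolar cell sums were lower in every CKO library than in any WT library. Log2 fold changes were below 0 for 8 cone, 7 ganglion and 6 bipolar markers, and above 0 for 0, 1 and 2. Their medians were -0.18, -0.16 and -0.10. For 8 amacrine markers the sum was 459.3 to 475.4 FPKM in CKO, against 403.1 to 427.4 FPKM in WT, higher in every CKO library. Of the amacrine markers 7 had log2 fold changes above 0 and 1 below 0, with a median of 0.19. For 8 Muller glia markers it was 2083 to 2282 FPKM in CKO, against 1878 to 1984 FPKM in WT, also without overlap. The median log2 fold change of these 8 was only 0.026, with 6 above 0 and 2 below 0. Only 1 of them had an unadjusted limma p under 0.05. The sums of 6 horizontal cell markers overlapped, at 159.0 to 163.4 FPKM in CKO, against 152.7 to 165.6 FPKM in WT. Their log2 fold changes were divided, from -0.38 to 0.25, with 2 above 0 and 4 below 0. Tfap2b stands in both the horizontal and the amacrine list. Among these lists 1 marker, in the Muller glia list, passed the adjusted threshold, and no list had a marker at 0 in all libraries. Their part in the levels of the respiratory genes was not tested.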

How the data were processed

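Retinal mRNA of 3 CKO and 3 WT samples was compared. The deposited values are FPKM per gene symbol; the unit is that of Cufflinks, named with TopHat2, Bowtie2, SAMtools and build mm10 in the submitters' processing notes, and it fits the values, which are fractional. The labels' protocols name a stranded mRNA kit. The sources used here do not give the annotation or the use of strand in counting. Spreadsheet dates stood in place of 27 symbols of WT 3, which were put back by row from the other libraries.

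Groups were compared with limma 3.58.1 (R 4.3.3) on log2(FPKM + 1) over 13215 genes (mean of 1 FPKM or more), with a variance trend, two-sided, adjusted by Benjamini-Hochberg. Fold changes on this scale understate changes of low genes. The fit was tested on simulated data. Absolute depth is unknown; low values gave a depth relative to WT 1 of 1.035, 1.31 and 1.20 in CKO 1 to 3 and of 1.085 and 1.07 in WT 2 and WT 3. Median-of-ratios size factors were 1.0002 to 1.0027, so no rescaling was applied.

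Values in every library are given for catalytic and defining subunits, the c-ring genes, members with an unadjusted p under 0.05 or groups that do not overlap, and the largest rise and fall; from the other lists the 3 genes of smallest p are named. The members and lists were chosen with earlier results of these data known. Positions and windows of 50 bases come from GENCODE M21 principal transcripts, both strands, with Atp5sl matched as Dmac2. The alternatives tried were other pseudocounts, filters, scalings, variance models and sample weights, a replicate block, removal of length and GC trends, and each library left out. A marker gene and the list that rests on it are not reported here.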

Additional observations from a re-analysis of the deposited data

How the results depend on the processing

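No member was called under any of 18 alternatives, where the smallest adjusted p was 0.3902. Over all genes, 2 were higher and 1 lower in CKO. Genes higher numbered 1 with the replicate block and without the variance trend. They numbered 3 without a filter, with quantile normalization, with robust eBayes and with sample weights. Genes lower numbered 0 without a filter, with robust eBayes and without the trend. When a library was left out, 1 to 3 genes were higher and 0 to 1 lower. Members lower at an unadjusted limma p under 0.05 numbered 1 (3.23%, against 4.36% of all tested genes). They were 0 with quantile normalization (4.04% of all tested genes), without the trend (4.1%) and once length and GC trends were removed (3.61%). They were 2 with the replicate block (6.45%, against 5.54%) and robust eBayes (6.45%, against 4.37%), 3 with sample weights (9.68%, against 5.23%), and 0 to 4 when a library was left out. They were 0 without WT 1 (4.24% of all tested genes). Without CKO 1 they were 2, Atp5d and Uqcrq (6.45%, against 3.95%), and without CKO 3 also 2, Uqcrfs1 and Cyc1 (6.45%, against 4.15%). Without WT 2 they were 4, Atp5g3, Atp5j, Atp5l and Cyc1 (12.9%, against 4.01%). The single gene was Uqcrc1 without CKO 2 (3.23%, against 3.34%) and Uqcrfs1 without WT 3 (3.23%, against 3.48%). The count higher was 1 (3.23%, against 3.52% of all tested genes). It was 0 without the trend (3.81% of all tested genes) and 0 to 1 when a library was left out. It was 0 without CKO 3 (2.86%), WT 1 (3.47%) or WT 3 (2.92%). Without CKO 2 it was 1 (3.23%, against 2.6%), with Atp5e in place of Sdhc. The median fold change of the members (-0.0494) was -0.0183 with quantile normalization, -0.029 after removal of length and GC trends, where the medians of all tested genes were 0.0040 and 0.0054, and -0.0627 to -0.0278 when a library was left out. Members with every CKO library below every WT library numbered 4 to 12 over these omissions, against 11.0% to 13.1% of all tested genes. Signs turned in 29 of 557 recomputed fold changes, all of the 12 genes concerned lying within 0.0515 of 0. With quantile normalization, Sdha was at 0.0089, Sdhb at 0.0133 and Atp5o at 0.0262; after removal of length and GC trends, which left 30 members, they were at 0.0041, 0.0238 and 0.0199; with sample weights Atp5o was at 0.0114. Omission of a library gave a range of -0.0105 to 0.0075 for Sdha, -0.0473 to 0.0296 for Sdhb, -0.0627 to 0.0362 for Uqcr10, -0.1027 to 0.0035 for Cycs, -0.0422 to 0.0476 for Atp5c1, -0.0257 to 0.0788 for Atp5g2, -0.0683 to 0.0056 for Atp5f1, -0.1029 to 0.0079 for Atp5h, -0.0471 to 0.0403 for Atp5o, -0.0163 to 0.0743 for Atp5j2, -0.0313 to 0.0438 for Atp5k and -0.1361 to 0.2114 for Atp5s. The cause was not tested. Same-numbered libraries correlated at 0.072, 0.0063 and 0.10 in their deviations from the group means, against -0.12 to 0.036 for the other combinations. These few values cannot decide whether the replicate numbers of the labels pair the samples. Absolute depth is unknown, so no counting error could be set.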
